A study of Homo sapiens with 12 samples.

Results

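The comparison is between the unperturbed states of the cell lines of the study, Ls174T and HEK293T, each read on 1 dual-color array of the 12 in the series. Ls174T is a human colorectal cancer line whose Wnt pathway is constitutively active through a β-catenin mutation, and HEK293T is a line from human embryonic kidney that carries the SV40 large T antigen. Both were transfected with 15 nM si-control RNA for 72 h, and the HEK293T cells were then kept for 9 h in control conditioned medium (CM), which the Ls174T cells did not receive. Each RNA was labeled with Cy3 and hybridized with Cy5-labeled universal human reference RNA to a Whole Human Genome array (Agilent). Every cell line value is therefore the log2 ratio of sample to reference RNA, and the difference is the Ls174T ratio minus the HEK293T ratio, so that a positive value is higher in Ls174T cells. A feature was well-measured when the median signal of either channel exceeded 2-fold its local background on both arrays and it was neither a control spot nor marked as an outlier, which held for 27489 of 43376 features and gave a value for 13159 genes. With 1 array per cell line there is no replicate check, no test was made, and the error after ± is the error that the scanner program assigns to a ratio, combined over both arrays for a difference. The si-control arrays lay on different slides, so that slide, medium and cell line cannot be told apart within this pair, and 8 further arrays of both lines against the same reference RNA were read beside them.

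The intestinal epithelium renews itself from stem cells at the crypt base, where Wnt signals keep β-catenin and TCF factors active on target genes such as AXIN2, ASCL2 and LGR5. Daughter cells become absorptive enterocytes with a brush border or secretory cells such as goblet cells, which make mucus, under transcription factors of the CDX, HNF, KLF and ATOH1 families. HEK293 lines have no intestinal program, respond to added Wnt3A, and are known to express neuronal intermediate filaments beside genes of the developing kidney.

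Of 10 intestinal markers, 5 were well-measured, of which 3 were past 2-fold higher in Ls174T cells and 2 within 2-fold. VIL1, which encodes the brush border protein villin, had a ratio of 2.40 ± 0.30 in Ls174T cells and was not well above background in HEK293T cells. EPCAM, an epithelial adhesion molecule, was at 2.48 ± 0.31 in Ls174T and -5.19 ± 0.53 in HEK293T cells, a difference of 7.67 ± 0.62, or 204-fold. CDH1, encoding E-cadherin, was 3.44-fold higher in Ls174T cells. The mucin gene MUC2 was within 2-fold, with a difference of 0.44 ± 0.31, and so was the intestinal regulator CDX2 at 0.44 ± 0.62. For CDX2 the sample and the reference channel moved together: its Cy3 signal after normalization was 10.86 on the Ls174T array and 7.84 on the HEK293T array (log2), while the reference signal, the same RNA on both, was 2.44 higher (log2, centered) on the Ls174T array. The remaining 5 intestinal markers, CDX1, CDH17, GPA33, LGALS4 and KRT20, did not pass the filter on the HEK293T array and are described with the other such genes. Among the HEK293T markers, VIM, CDH2, NEFL, NEFM and INA were all past 2-fold higher in HEK293T cells, LHX1 was within 2-fold at -0.83 ± 0.30, and PAX2 had no named feature. Of 9 markers of blood, endothelial and stromal cells, PTPRC and PECAM1 were not well above background in either line, CD14, DCN and LUM were within 2-fold, and CD3E, CDH5 and HBB did not pass the filter. In bulk RNA such as this, fewer cells that express a gene and less of its RNA per cell cannot be told apart.

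Between the arrays, 3926 features (14.3%) were past 2-fold higher in Ls174T cells and 5259 (19.1%) past 2-fold higher in HEK293T cells, and 42.7% of these calls were thus higher in Ls174T. After normexp background correction and loess in place of the program's own processing, the counts were 2610 and 6037, and 30.2% were higher in Ls174T. With the background of spots marked as background outliers replaced before that correction, they were 3199 and 3360, a share of 48.8%. The median difference over all features was -0.03 and the SD 1.71 on the log2 scale. Within 1 slide, the Ls174T si-control array gave 4140 and 5355 features against the HEK293T si-BRG1 Wnt3A array, and 3700 and 4673 against the HEK293T si-P300 Wnt3A array. The reference RNA was the same on both arrays. Its signal had a centered SD of 0.29 between both arrays and was past 2-fold on 1.68% of features, against an SD of 1.41 and 31.4% for the sample channel. The sample signal was well above background on both arrays for 24279 features, in Ls174T only for 271, in HEK293T only for 2079 and in neither for 860. The Ls174T array was the dimmer one in Cy3, with a median signal of 2.27 times the local background against 3.24 times on the HEK293T array.

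**Figure D1:**
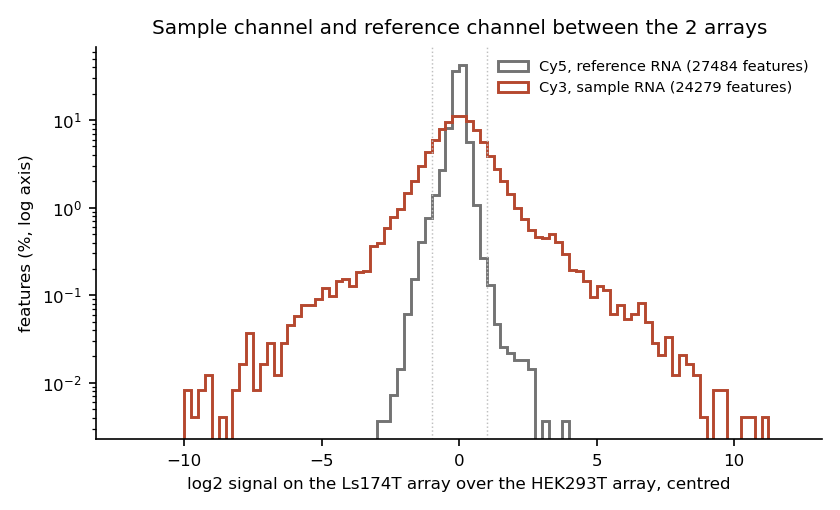
Distribution over features of the log2 signal on the Ls174T array over that on the HEK293T array, centered on its median, for the Cy5 channel (reference RNA, the same on both arrays) and the Cy3 channel (the cell line RNA), with dotted lines at 2-fold. The reference distribution is narrow, with an SD of 0.29, and the sample distribution is wide, with an SD of 1.41.

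The reference signal moved with some of the largest differences. Among the 441 features past 16-fold higher in Ls174T cells, 32 (7.26%) had a reference signal past 2-fold higher on the Ls174T array, against 17 of the 18302 features within 2-fold. Toward HEK293T these counts showed no such excess, with 18 of 925 features past 16-fold (1.95%), 28 of 4334 between 2- and 16-fold (0.646%) and 313 of the 18302 within 2-fold (1.71%) having a reference signal past 2-fold higher on the HEK293T array. The median reference difference nonetheless moved in both directions. It was 0.279 past 16-fold toward Ls174T, -0.255 past 16-fold toward HEK293T and 0.008 within 2-fold (log2, centered). A reference that moves with the sample makes a ratio difference smaller than the sample difference. Of the genes named here, it was past 2-fold for ASCL2, TRABD2A, SMOC2, KRTCAP3, TRPM2, RAB25, TSPAN1, CLDN7, EPHB2, EPHB3, H19, CDX2, NEFM, SLIT2, HOXD10, CEACAM7 and MUC6, in the direction of the difference for each except CEACAM7 and MUC6, and its cause was not tested.

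The differences in favor of Ls174T cells were led by AGR2, OCIAD2 and ASCL2. AGR2, a disulfide isomerase that goblet cells need to fold mucins, was at 3.10 ± 0.35 in Ls174T and -6.15 ± 0.62 in HEK293T cells, a 609-fold difference. On the 4 Ls174T arrays AGR2 ranged from 2.38 to 3.32 and on the 6 HEK293T arrays from -7.62 to -5.49, with no overlap. ASCL2, the transcription factor of crypt stem cells, was at 5.32 ± 0.55 against -3.63 ± 0.40, or 494-fold. Its ranges were 5.03 to 5.83 and -3.63 to -2.38. OCIAD2 was 521-fold higher, the calcium-binding S100A14 416-fold, and DNAJA4, a co-chaperone of the DnaJ family, 328-fold. TFF3, a trefoil peptide secreted with mucus, differed by 7.85 ± 0.60, and its 3 probes all lay between 6.00 and 8.64. CRIPTO, the Nodal co-receptor also known as TDGF1, differed by 7.38 ± 0.60. Its Ls174T ratio was 2.23 in si-control cells and 0.68 on the si-P300 array. DDC, which encodes the decarboxylase that makes dopamine and serotonin, differed by 7.46 ± 0.58, and TRABD2A, a membrane protease that inactivates Wnt ligands, by 7.72 ± 0.59. The other genes among the 15 with the largest measured difference were C19orf33, PLA2G3, MAL2, TMEM125 and TMEM45B, between 175-fold and 271-fold.

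Where a line's sample signal was not well above background, a lower bound on the fold between the sample signals is given in place of a ratio. It was set on normalized Cy3 signals, against the higher of the gene's own signal and the lowest signal well above background on that array. Without balanced dye swaps it is open to dye bias. It also depends on the normalization between arrays, after which 2 signals can lie further apart than before. That normalization used both channels of each array, so a normalized Cy3 signal also depends on the reference signal. The bound is not a ratio to the reference and is no bound on the difference of the ratios: for 106 of 933 genes it lay above the fold that the ratios give. Among the genes named here this held for SMOC2, with a ratio difference of 9.75, KRTCAP3 with 7.61, TRPM2 with 7.31, TUBAL3 with 7.73, ST6GALNAC1 with 7.70, RAB25 with 6.72 and CYTIP with 6.41. On the HEK293T side it held for SLIT2 with -7.40, HOXB2 with -7.62, HOXC9 with -7.80, HOXD10 with -6.82, CDH2 with -6.04, TWIST1 with -4.97 and TCF7L1 with -4.86, and the sizes of these genes are the less certain. SMOC2, a matrix protein of crypt stem cells, had a sample signal at least 2974-fold higher in Ls174T cells, with a ratio of 6.96 ± 0.70 there. The colon cancer surface protein TSPAN8 was at least 1472-fold higher, PRR15L at least 1317-fold, the neuronal calcium sensor VSNL1 at least 1013-fold and VIL1 at least 722-fold. SLCO1B3, which encodes an organic anion transporter known from hepatocytes, had a ratio of 6.98 ± 0.70 in Ls174T cells (SMOC2 was as high within the error) and was at least 549-fold higher. It was well-measured on all 4 Ls174T arrays, from 6.24 to 6.98, but on only 2 of the 6 HEK293T arrays. OVOL1, a zinc finger regulator of epithelial identity, HEPH, an iron-oxidizing membrane enzyme of enterocytes, and ST6GALNAC1, which sialylates mucin glycans, were at least 295-fold, 269-fold and 249-fold higher. KRTCAP3, TRPM2 and TUBAL3 completed this group, at least 396-fold, 288-fold and 288-fold higher.

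The differences in favor of HEK293T cells were led by BEX2, BEX3 and CMTM3. The 3 BEX genes, which encode small brain-expressed proteins, stood together. BEX2 was at -7.50 ± 0.75 in Ls174T and 1.17 ± 0.23 in HEK293T cells, or 409-fold higher in HEK293T, and its ranges over the arrays were -7.62 to -6.47 and 1.12 to 1.76. BEX3 and BEX4 were 393-fold and 164-fold higher. IGF2BP1, an oncofetal RNA-binding protein measured in 10 spots, was at -6.31 ± 0.64 against 1.29 ± 0.24, or 194-fold higher, and HEY1, a repressor induced by Notch, was 188-fold higher. TLE4, a Groucho corepressor that binds TCF factors, was at -4.38 ± 0.46 against 2.47 ± 0.31, a difference of -6.86 ± 0.55. UCHL1, a neuronal ubiquitin hydrolase, was 106-fold higher, and the cell cycle inhibitor gene CDKN2A 104-fold. On the 4 Ls174T arrays CDKN2A ranged from -3.93 to -3.30, and on the 6 HEK293T arrays from 2.63 to 2.86. CMTM3, RFLNB, NPTX1, COCH, NETO2, FOXF2 and TRO made up the rest of the 15 largest measured differences, from 93.7-fold to 241-fold. Among genes not well above background in Ls174T cells, the carbonic anhydrase CA2 was at 4.72 ± 0.49 in HEK293T cells and at least 837-fold higher there, although it is also an enzyme of the colonic surface epithelium. The neurofilament gene NEFM was at 4.85 ± 0.50 and at least 650.0-fold higher, the guidance ligand SLIT2 at least 341-fold, the angiomotin gene AMOT at least 319.7-fold, TCEAL9 at least 310.1-fold, and the homeobox genes HOXB2 and HOXC9 at least 238-fold and 222-fold. PNMA8A, TMSB15A, HDGFL3, LONRF2 and CEP15 followed, at least 199-fold to 228-fold higher.

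**Figure D2:**
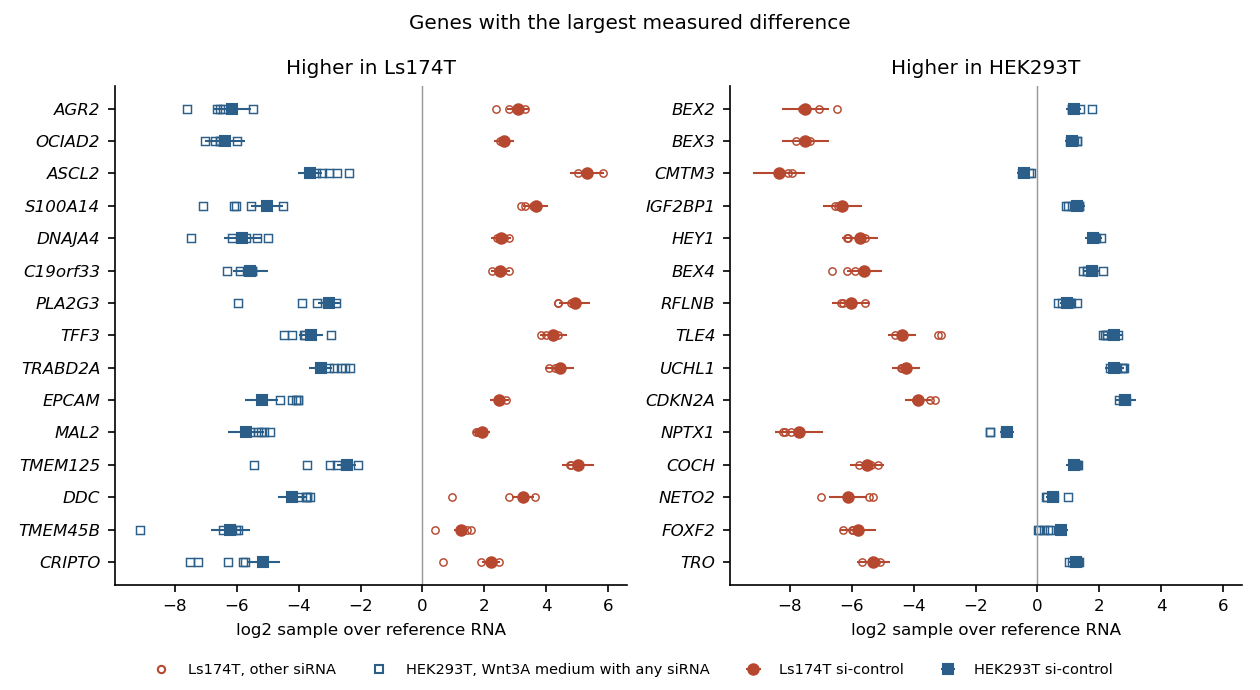
log2 ratio of sample to reference RNA for the 15 genes with the largest measured difference in each direction. Filled symbols are the si-control arrays with the program error, open circles the 3 other Ls174T arrays, and open squares the 5 HEK293T arrays after Wnt3A. For every gene shown the circles and squares lie in separate ranges, as for AGR2 at 2.38 to 3.32 against -7.62 to -5.49.

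Different probes of a gene did not always give the same size. Of 4239 genes with 2 or more measured probes, 15 had a probe past 2-fold in each direction. Among named genes, the second probe of VIL1 gave 4.09, of HEPH 2.79, of CMTM3 -2.65, of CDKN2A -9.02 and of NPTX1 -3.73, each past 2-fold in the direction of the brighter probe. The second probe of PNMA8A gave only -0.46 and is within 2-fold.

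The sequences before the starts of genes of both groups are shown to set genes of opposite direction side by side. They are the 250 bases before the transcription start from RefSeq (GRCh38.p14), 5′ to 3′ on the strand of the gene, and capitals mark matches on either strand to 3 short motifs of gut transcription factors, GTTAATNAT (HNF1), TTTATNG (CDX) and CAAAGTCCA (HNF4). The first 4 belong to genes higher in Ls174T cells, namely the transporter gene SLCO1B3, the fatty acid binding protein gene FABP1, S100A14 and the secreted AGR2 relative AGR3. The last 3 belong to genes higher in HEK293T cells.
SLCO1B3 (chr12:20810455-20810704, plus strand): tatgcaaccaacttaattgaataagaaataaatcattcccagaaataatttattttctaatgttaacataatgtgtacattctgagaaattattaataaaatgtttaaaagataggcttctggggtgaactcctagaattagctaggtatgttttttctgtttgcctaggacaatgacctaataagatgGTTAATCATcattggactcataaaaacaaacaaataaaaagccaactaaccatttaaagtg
FABP1 (chr2:88128063-88128312, minus strand): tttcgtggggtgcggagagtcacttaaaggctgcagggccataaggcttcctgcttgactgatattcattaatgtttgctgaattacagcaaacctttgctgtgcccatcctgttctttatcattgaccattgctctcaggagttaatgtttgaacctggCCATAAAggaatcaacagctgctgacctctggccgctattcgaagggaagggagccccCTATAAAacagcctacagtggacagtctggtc
S100A14 (chr1:153616326-153616575, minus strand): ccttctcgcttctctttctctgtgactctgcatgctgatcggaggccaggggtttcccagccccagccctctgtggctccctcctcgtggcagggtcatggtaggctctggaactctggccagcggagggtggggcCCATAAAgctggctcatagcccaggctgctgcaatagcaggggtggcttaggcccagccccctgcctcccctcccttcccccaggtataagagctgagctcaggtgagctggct
AGR3 (chr7:16881984-16882233, minus strand): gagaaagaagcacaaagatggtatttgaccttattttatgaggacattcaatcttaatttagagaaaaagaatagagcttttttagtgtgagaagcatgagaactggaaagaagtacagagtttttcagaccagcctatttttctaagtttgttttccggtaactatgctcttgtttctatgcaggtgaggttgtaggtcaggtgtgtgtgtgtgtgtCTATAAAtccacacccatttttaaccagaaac
TLE4 (chr9:79571715-79571964, plus strand): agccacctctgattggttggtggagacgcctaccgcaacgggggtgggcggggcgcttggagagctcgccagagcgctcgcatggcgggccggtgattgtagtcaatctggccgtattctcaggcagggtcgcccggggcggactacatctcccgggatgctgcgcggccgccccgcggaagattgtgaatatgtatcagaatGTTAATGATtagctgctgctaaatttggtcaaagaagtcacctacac
UCHL1 (chr4:41256678-41256927, plus strand): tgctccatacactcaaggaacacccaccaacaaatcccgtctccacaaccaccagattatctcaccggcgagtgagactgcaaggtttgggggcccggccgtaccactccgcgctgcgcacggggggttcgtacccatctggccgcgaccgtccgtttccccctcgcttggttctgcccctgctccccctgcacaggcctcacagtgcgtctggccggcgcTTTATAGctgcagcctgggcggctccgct
BEX2 (chrX:103310991-103311240, minus strand): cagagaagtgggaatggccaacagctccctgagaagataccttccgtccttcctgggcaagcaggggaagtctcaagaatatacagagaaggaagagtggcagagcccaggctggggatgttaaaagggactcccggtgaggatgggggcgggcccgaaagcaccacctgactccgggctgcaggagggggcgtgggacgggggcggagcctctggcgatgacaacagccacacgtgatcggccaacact
SLCO1B3 and TLE4, on opposite sides of the comparison, each hold 1 match to the HNF1 motif. FABP1 holds 2 matches to the CDX motif, S100A14, AGR3 and UCHL1 hold 1 each, and BEX2 holds none of the 3 motifs. The windows shown do not stand for their groups. Of other genes higher in Ls174T cells, the windows of AGR2, OCIAD2 and DNAJA4 hold none of the 3, and that of VSNL1 holds 1 CDX match. In AGR3, UCHL1 and the second match of FABP1 the match also holds TATAAA on 1 strand, the letters of a TATA box. The window of SLCO1B3 has 0 CpG dinucleotides and 28.4% G and C, that of AGR3 1 CpG, and that of UCHL1 20 CpG and 64.4% G and C.

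Over all genes, the motifs were rare in every group. Promoter windows were at hand for 10606 of the 13159 genes measured, 601 of the 824 past 4-fold higher in Ls174T and 879 of the 1153 past 4-fold higher in HEK293T cells. The CDX motif was in 8.65%, 7.51% and 6.09% of the windows of the Ls174T group, the HEK293T group and all genes. The HNF1 motif was in 0.666%, 0.341% and 0.396%, which is 4, 3 and 42 genes. The HNF4 motif was in 0.666% of the Ls174T windows and 0.198% of all windows, 4 and 21 genes, and in 0 of the HEK293T windows. The median number of CpG dinucleotides was 14 in the Ls174T group and 20 in both the HEK293T group and all genes. These shares are descriptions, and a match is not a bound site.

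The same contrast was then followed through 18 lists of genes with known roles. Over all 13159 genes the median difference was -0.01, with 15.1% past 2-fold higher in Ls174T and 18.5% higher in HEK293T cells, and these are the shares to hold each list against. Where dim genes are taken at their bound and genes dim in both lines are left out, the shares are 15.3% and 17.7% of 12737 genes. Of 12700 genes with a ratio on all 10 arrays, 28.7% had every Ls174T array above every HEK293T array and 30.8% the reverse.

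Epithelial adhesion genes formed the group with the highest median. Of 26 measured, 23 were higher in Ls174T cells past 2-fold and 1 in HEK293T, with a median of 4.31. The claudins that seal tight junctions were among them, CLDN3 at 7.18 ± 0.62, CLDN7 at 5.52, CLDN4 at 4.82 and CLDN1 at 3.52. The second probe of CLDN3 gave 1.91. Keratin genes of simple epithelia, KRT8, KRT18 and KRT19, differed by 3.36, 3.38 and 4.57. The epithelial regulators were on the same side, with the splicing factor ESRP1 at 4.13, GRHL2 and RAB25 at least 54.5-fold and 191-fold higher, and the protease inhibitor SPINT1 at least 57-fold. Only CGN, encoding cingulin, was higher in HEK293T cells past 2-fold, at -1.99 ± 0.33.

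Gut transcription factors were mostly higher in Ls174T cells, 10 of 15 measured, with 1 higher in HEK293T and a median of 1.83. The pioneer factor FOXA2 was at 1.75 ± 0.26 in Ls174T and -4.31 ± 0.45 in HEK293T cells, 66.5-fold higher in Ls174T, and the 4 and 6 arrays ranged over 1.49 to 1.75 and -4.98 to -3.76. FOXA3 and FOXA1 differed by 2.89 and 1.78, and ELF3, an ETS factor of epithelia, was 23.5-fold higher. KLF4, which goblet cells need to differentiate, differed by 3.29 ± 0.38, the vitamin D receptor VDR, read in 10 spots, by 2.99 ± 0.41, and SPDEF, a goblet and Paneth cell factor, by 2.68. GATA4, known from the small intestine and the heart, lay on the other side, at 1.89 ± 0.27 in HEK293T cells and at least 11.1-fold higher there.

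Mucus and goblet cell products were higher in Ls174T cells for 8 of 14 measured genes, with 1 higher in HEK293T and a median of 2.78. Beside AGR2, TFF3 and ST6GALNAC1, the IgG-binding mucus protein FCGBP was 63.9-fold higher, the trypsin inhibitor SPINK1 16.2-fold, and AGR3 at least 13.3-fold. The mucin genes themselves were spread, with MUC20 at 3.63, MUC6 at 0.92, MUC2 at 0.44, MUC1 at -0.48 and MUC4 at -1.51. On the si-P300 arrays the median of the list was 1.63.

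Carcinoembryonic and surface antigens were higher in Ls174T cells for 7 of 10 measured genes, with 1 higher in HEK293T that was dim in both lines, and a median of 1.44. Beside TSPAN8, the calcium-binding S100P differed by 7.02 ± 0.59 and the galectin gene LGALS3 by 6.51 ± 0.67, 129-fold and 91.1-fold. TSPAN1 was 7.65-fold higher, TM4SF5 2.91-fold and CEACAM7 2.53-fold, and TM4SF5 turned to -1.05 after normexp and loess. Enterocyte genes had no common direction, with 5 of 13 measured higher in Ls174T and 2 in HEK293T, 1 of each dim in both lines, and a median of 0.36, which turned negative after normexp and loess. VIL1 and CA2 mark the ends of this list. FABP1, which binds fatty acids in enterocytes and hepatocytes, was 14.6-fold higher in Ls174T cells although its ratio to the reference there was -3.72 ± 0.40. The scaffold gene USH1C of the brush border differed by 2.77 ± 0.42, and the brush border myosin MYO1A by 1.22 ± 0.33, which became -0.30 after normexp and loess. MTTP, needed for lipoprotein assembly, was within 2-fold at 0.45 ± 0.56.

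The Wnt pathway itself is where both lines are used as models, Ls174T for its constant activity and HEK293T for its response to added ligand. Of 27 crypt and Wnt target genes measured, 15 were higher in Ls174T and 4 in HEK293T cells, with a median of 2.02. The list was drawn up with earlier results of these data known. It holds genes, such as SMOC2 and RGMB, that the paper reports as lowered by β-catenin depletion in Ls174T cells. A gene picked for such a fall has to be expressed in Ls174T cells, so part of this count was set in advance. AXIN2, a feedback inhibitor and widely used target, was at 2.51 ± 0.31 in Ls174T and -0.62 ± 0.21 in HEK293T cells, a difference of 3.13 ± 0.37. The ephrin receptor EPHB3 differed by 6.03 ± 0.56, the ubiquitin ligase RNF43 by 4.29 ± 0.42, SOX9 by 4.15, CCND1 by 3.59, EPHB2 by 2.01 and SP5 by 2.40. CD44, an adhesion receptor measured in 10 spots, was 81.9-fold higher, with a ratio of -1.61 ± 0.25 in Ls174T and -7.96 ± 0.80 in HEK293T cells, and CYTIP was at least 119-fold higher. MYC was within 2-fold at 0.70 ± 0.29, as were TCF7 at 0.03, NKD1 at 0.58 and ZNRF3 at 0.69. LEF1, APCDD1, TNFRSF19 and DKK1 were higher in HEK293T cells, LEF1 at -3.37 ± 0.53 and APCDD1 at -2.26. The HEK293T array after 9 h of Wnt3A gave a list median of 1.74 in place of 2.02.

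Components of the Wnt machinery and its coactivators had no common direction, with 17 of 29 measured within 2-fold, 5 higher in Ls174T, 7 higher in HEK293T and a median of -0.16. They were no nearer to equal than all genes, of which 15.1% were past 2-fold higher in Ls174T and 18.5% in HEK293T cells. CTNNB1, which encodes β-catenin, was at 0.58 ± 0.21 against 0.07 ± 0.20, a difference of 0.50 ± 0.29. MLLT10, the subject of the study, was at -0.34 ± 0.21 in Ls174T and 0.72 ± 0.21 in HEK293T cells, or 2.08-fold higher in HEK293T, and it was within 2-fold at -0.74 against the HEK293T Wnt3A array. The histone methyltransferase gene DOT1L differed by 0.64 ± 0.29 and SMARCA4, encoding BRG1, by -0.93 ± 0.30, both within 2-fold. EP300, encoding p300, was at -2.31 ± 0.31 against 0.84 ± 0.22, a difference of -3.15 ± 0.38, but its second probe, in 9 spots, gave -0.61, within 2-fold. The Groucho corepressors of TCF factors differed among themselves. TLE4 was described above, TLE1 differed by -2.60 ± 0.33, and TLE2 by 2.17 ± 0.32, while TLE3 was within 2-fold at -0.42. TCF7L1, the TCF family member best known as a repressor, was at -0.32 ± 0.21 in HEK293T cells and at least 31.8-fold higher there. CDK9, the kinase of transcription elongation read in 10 spots, was 2.64-fold higher in Ls174T cells.

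These arrays also show the siRNA targets in each state, which is a check of the labels. MLLT10 was at -1.76 on the Ls174T si-MLLT10 array and -1.35 on the HEK293T one, SMARCA4 at -3.19 and -3.71 on the si-BRG1 arrays, and DOT1L at -2.07 on the HEK293T si-DOT1L array, each below its si-control ratio. EP300 was at -1.87 on the HEK293T si-P300 array and -2.91 on the Ls174T one, where si-control cells stood at -2.31. On the Ls174T si-MLLT10 and si-BRG1 arrays EP300 was at -2.50 and -2.41, so for the Ls174T si-P300 array this check is weak.

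Mesenchymal genes lay on the HEK293T side, with 14 of 23 measured past 2-fold higher in HEK293T, 2 in Ls174T and a median of -1.57, or 12 and 2 with dim genes at their bound. VIM, the intermediate filament vimentin, was at -6.42 ± 0.65 in Ls174T and -0.48 ± 0.21 in HEK293T cells, 61.3-fold higher in HEK293T. CDH2, encoding N-cadherin, was at least 74.9-fold higher, and the repressors of epithelial genes ZEB2, SNAI2 and TWIST1 at least 40.1-fold, 35.2-fold and 35.1-fold. TWIST2 was 7.78-fold higher. Among matrix genes, the collagens COL4A1 and COL4A2 were at -2.74 and -2.76 and FN1, encoding fibronectin, at -0.58. SNAI1 and PDGFRB were on the Ls174T side, SNAI1 at 1.46 ± 0.34 and PDGFRB at least 3.24-fold higher.

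The HOX genes, which set position along the body axis, had the lowest median of the 18 lists. Of 23 measured, 17 were past 2-fold higher in HEK293T cells, 0 in Ls174T and 6 within 2-fold, with a median of -3.35 and of -2.87 with dim genes at their bound. The 6 within 2-fold were HOXB13, HOXA10, HOXA13, HOXA9, HOXA3 and HOXA7, 5 of them from the HOXA cluster. HOXA3 was at 0.17 on its brighter probe and -3.38 on the other. HOXB9 was at -3.20 ± 0.36 in Ls174T and 2.86 ± 0.33 in HEK293T cells, 66.6-fold higher. HOXD10, at 3.86 ± 0.42 in HEK293T cells, was at least 199-fold higher, HOXA4 at least 51.3-fold and HOXD3 at least 24.3-fold. Among genes with both channels above 2-fold background on both arrays the list median was -0.96.

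Neural genes were past 2-fold higher in HEK293T cells for 13 of 20 measured and in Ls174T for 3 (1 of them dim in both lines), with a median of -2.09. Among neurofilament and related filament genes, NEFM and NEFL were at least 650.0-fold and 94.1-fold higher and INA, encoding internexin, was 36.9-fold higher. NEFH was within 2-fold at -0.25. The growth cone gene GAP43 and the microtubule-associated MAP1B were not well above background in Ls174T cells, MAP1B at least 20.8-fold higher in HEK293T, and the membrane glycoprotein GPM6B was at least 31.1-fold higher. NES, encoding nestin, lay on the Ls174T side at 1.95 ± 0.39. Without the 8 genes that had only a bound or no signal in either line the median was -0.88. Kidney development genes had no common direction in the whole, with 2 of 18 measured higher in Ls174T, 6 higher in HEK293T and a median of -0.20. EYA1, a transcriptional cofactor of nephron progenitors, was at least 18.2-fold higher in HEK293T, SALL1 at least 17.5-fold and the GDNF receptor RET at least 3.79-fold. PAX8 and WT1, also genes of the developing kidney, were higher in Ls174T cells, at 2.86 ± 0.38 and 2.49 ± 0.37.

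Oncofetal and imprinted genes were split, with 3 of 23 measured higher in Ls174T (1 of them dim in both lines), 7 higher in HEK293T and a median of 0.17. The median turned to -0.55 without the 4 genes dim in both lines and with dim genes at their bound, to -0.50, -0.24 and -0.25 on the si-MLLT10, si-BRG1 and si-P300 arrays, and to -2.10 after normexp and loess. IGF2BP1 and LIN28B, an inhibitor of let-7 maturation at least 55.5-fold higher, stood on the HEK293T side with the tumor antigen PRAME, 16-fold higher, and HMGA2 at -3.44 ± 0.41, whose second probe gave -0.44. The imprinted genes H19 and MEST stood on the Ls174T side. H19 was at 2.86 ± 0.33 against -2.59 ± 0.32, 43.6-fold, and MEST at -0.76 ± 0.22 against -6.59 ± 0.67, 56.6-fold. IGF2, the imprinted neighbor of H19, was within 2-fold at 0.17 ± 0.65.

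Antigen presentation and interferon-stimulated genes were higher in Ls174T cells for 19 of 32 measured, with 1 higher in HEK293T and a median of 1.35. Of 31 with a ratio on every array, 25 had all 4 Ls174T arrays above all 6 HEK293T arrays, against 28.7% of 12700 genes. The antiviral enzyme OAS1 was at least 47.7-fold higher, OAS3 16.4-fold, the immunoproteasome subunit PSMB8 40.5-fold, the transcription factor IRF7 20-fold, the ubiquitin-like ISG15 14.6-fold and the membrane protein IFITM3 12.6-fold. PSMB9 differed by 3.05 and B2M, the light chain of MHC class I, by 0.68. HLA-B was at -0.31 and HLA-C at -1.40, and since these genes are nearly alike in sequence and vary between people, their probes can read each other or miss an allele. Detoxifying enzymes were higher in Ls174T cells for 12 of 23 measured and in HEK293T for 6, with a median of 1.15 that was -0.10 after normexp and loess. The glucuronosyltransferase UGT1A6, the quinone reductase NQO1, the aldo-keto reductase AKR1C3 and the gut glutathione peroxidase GPX2 were 40.5-, 35.3-, 34.5- and 33.9-fold higher in Ls174T cells. The plasma peroxidase GPX3 and the glutathione transferase GSTM3 were 7.13- and 32.2-fold higher in HEK293T cells.

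Ribosomal protein genes were nearly all within 2-fold, while replication and p53 target genes were nearer to the shares of all genes. Of all genes, 15.1% were past 2-fold higher in Ls174T and 18.5% in HEK293T cells. Of 29 ribosomal protein genes measured, 28 were within 2-fold, with a median of -0.25, and the exception was RPL22 at -1.92 ± 0.33, or 3.79-fold higher in HEK293T cells. RPL22 stood at -1.69 to -1.26 on the 4 Ls174T arrays and -0.17 to 0.26 on the 6 HEK293T arrays. Of 35 genes of DNA replication and the E2F program, 26 were within 2-fold, 2 higher in Ls174T and 7 higher in HEK293T, with a median of -0.27. CDKN2A was on the HEK293T side of this list, as were the licensing factor CDT1 at -1.66 ± 0.33, TOP2A at -1.51, CDC45 at -1.30 and RRM1 at -1.12, while RRM2 and TK1 were on the Ls174T side at 1.12 and 1.09. Of 27 p53 target genes, 19 were within 2-fold, 5 higher in Ls174T and 3 higher in HEK293T, with a median of 0.18, which was -0.02 after normexp and loess. The stress cytokine gene GDF15 was at 0.34 ± 0.21 against -6.35 ± 0.64, 104-fold higher in Ls174T, and the death receptor FAS 5.74-fold. TP53I3 and PLK3 were 4.96- and 3.39-fold higher in Ls174T. PMAIP1, encoding the BH3 protein NOXA, was 5.05-fold higher in HEK293T and BAX 3.43-fold, although the second probe of BAX gave 0.12. CDKN1A, encoding p21, was within 2-fold at 0.59 ± 0.30. Of 14 blood, endothelial and stromal genes measured, 12 were within 2-fold and 2 higher in Ls174T, CD68 and LYZ. Only 6 of the 14 had a value measured in both lines or by bound, and 6, LYZ among them, were dim in both lines. The median of this list was 0.15 and turned to -1.17 after normexp and loess, as did CD68, from 1.20 to -1.14. The albumin gene ALB was at -8.71 ± 0.87 and -8.12 ± 0.82.

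**Figure D3:**
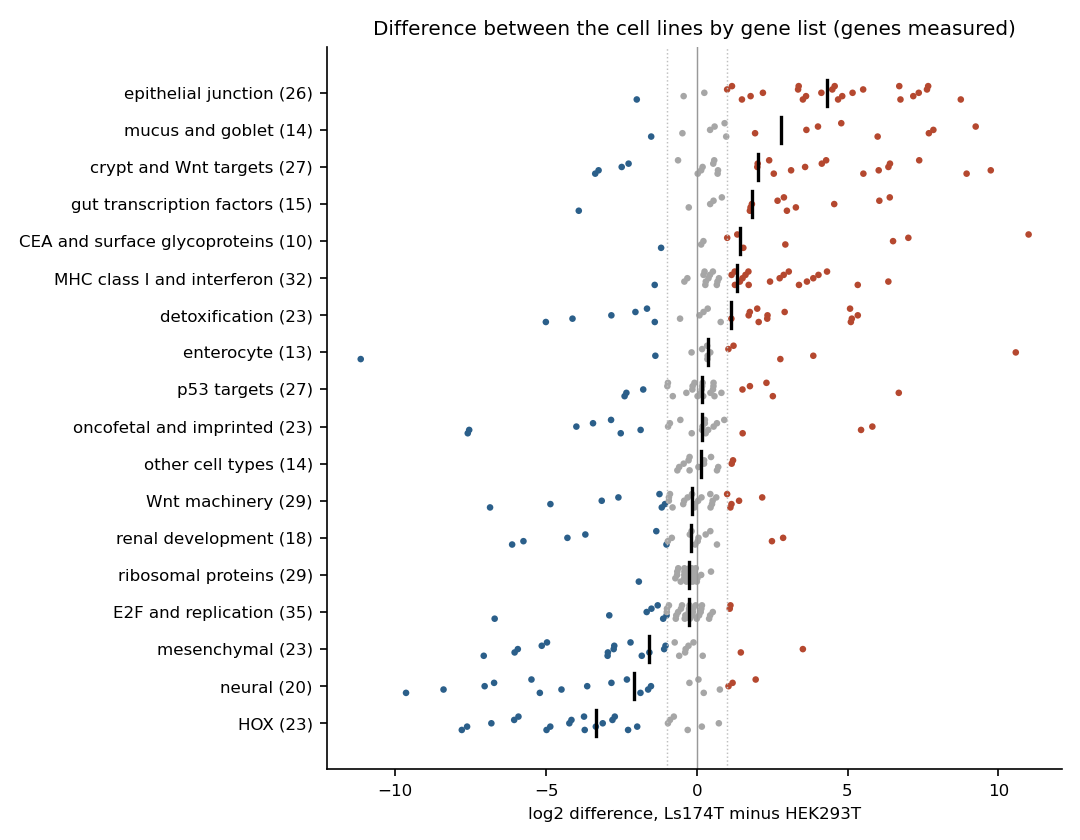
log2 difference, Ls174T minus HEK293T, of each measured gene by list, with the number measured in parentheses and a black bar at the list median. Red genes are past 2-fold higher in Ls174T, blue past 2-fold higher in HEK293T and gray within 2-fold (dotted lines). Medians run from 4.31 for epithelial junction genes to -3.35 for HOX genes.

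A gene that neither HEK293T cells nor the reference RNA express is dim in both channels of the HEK293T array and did not pass the filter on signal. Of 901 features well-measured on the Ls174T array only, 498 had a sample signal above 2-fold background, and of 2172 well-measured on the HEK293T array only, 2130 did. The values that follow are therefore normalized log2 Cy3 signals and not ratios to the reference. GPA33, a glycoprotein of intestinal epithelium, was at 16.10 in Ls174T and 4.23 in HEK293T cells, a bound of 3700.4-fold higher in Ls174T on these normalized signals. Its processed Cy3 signals before this normalization, 63966.4 and 24.2, were less far apart, so the size of this bound depends on the normalization. PIGR, the receptor that carries IgA across epithelia, was at 14.89 against 3.20, at least 1600.0-fold higher. CDH17, encoding LI-cadherin, was at least 51.7-fold higher. LGALS4, CDX1 and KRT20 were above background on both arrays but far apart, LGALS4 at 13.08 against 4.84, CDX1 at 12.19 against 5.95 and KRT20 at 8.59 against 4.78. All 5 intestinal markers without a ratio had the higher Cy3 signal in Ls174T cells. Each had passed the filter on the Ls174T array and failed it on the HEK293T array, so this direction was largely set in advance.

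Of 93 list genes and markers with a named feature and no ratio, 20 had a bound past 2-fold higher in Ls174T and 11 higher in HEK293T cells. Over all 4025 genes without a ratio these counts were 222 and 256, and the lists hold many gut genes. Those named in this paragraph, apart from ZEB1, were picked after their values were seen. The stem cell genes OLFM4 and LGR5 were at least 135-fold and 20.3-fold higher in Ls174T cells. The goblet cell genes SPINK4, ZG16 and MUC13 were at least 263-fold, 52.2-fold and 29.3-fold higher, and REG4 was at 11.97 against 5.10. The secretory lineage factor ATOH1, the ETS factor EHF and HNF4G were at least 14.4-fold, 78.2-fold and 13.9-fold higher. CEACAM6 and CEACAM5, encoding carcinoembryonic antigens, were at least 37.7-fold and 16.1-fold higher, and GUCY2C, the guanylate cyclase receptor of gut epithelium, at least 18.3-fold. On the HEK293T side stood the posterior HOX genes HOXD13, HOXD11 and HOXB8, at least 51.3-fold, 30.7-fold and 30.2-fold higher, EMX2, a homeobox gene of kidney and brain, at least 28.2-fold, ZCCHC12 at least 26.6-fold, and ZEB1 at least 2.79-fold. HNF4A and the enterocyte gene ALPI were above background in both lines without passing the filter, with signals of 6.02 and 5.98 in Ls174T and 5.26 and 5.54 in HEK293T cells. Of 15 enterocyte genes without a ratio, 5 were not well above background in either line, with FABP2, SI and MEP1B, genes of mature enterocytes, among them. The bound was past 2-fold higher in Ls174T for 2, GUCY2C and DPP4 (at least 12.3-fold), and in HEK293T for 0. SLC5A1 and CDHR5, above background on both arrays, were at 10.74 and 9.34 in Ls174T and 4.83 and 4.92 in HEK293T cells.

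**Figure D4:**
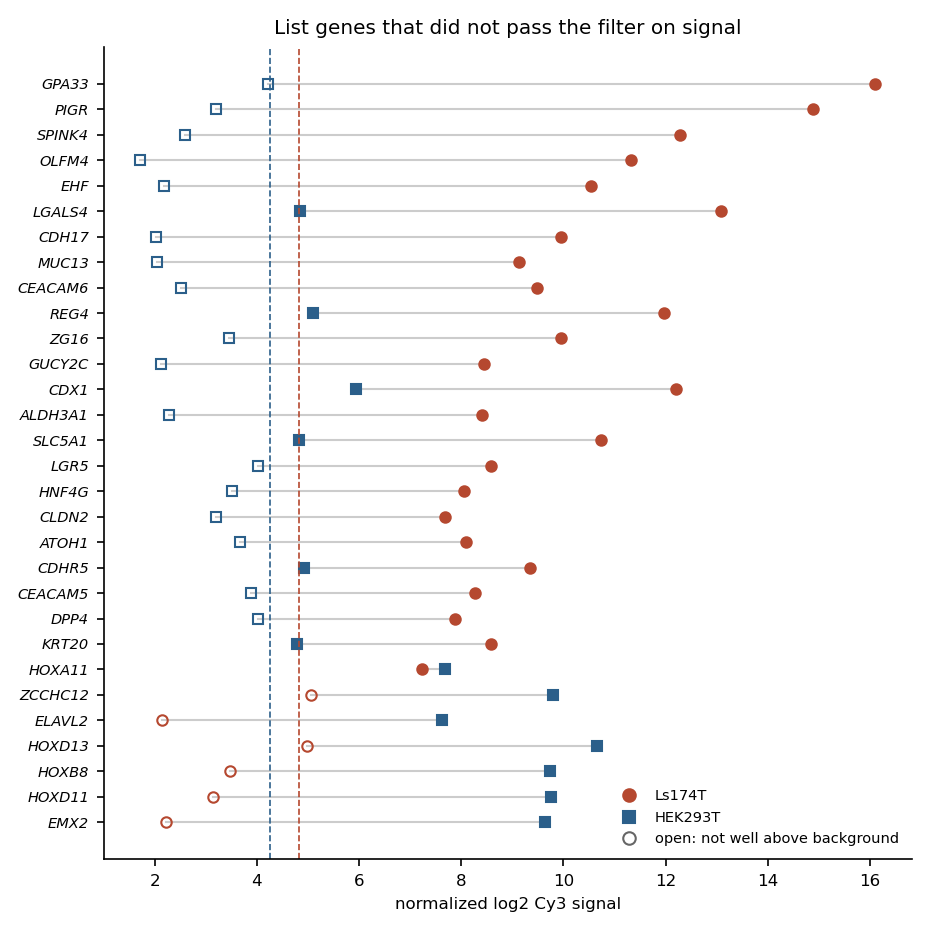
Normalized log2 Cy3 signal in Ls174T (red circles) and HEK293T cells (blue squares) of the 30 list genes and markers that did not pass the filter and exceed 7.5 in either line. Open symbols are not well above background, and the dashed lines at 4.82 (red, Ls174T) and 4.25 (blue, HEK293T) are the lowest signals well above background. In 23 genes the Ls174T signal is higher and in 7 the HEK293T signal.

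The contrast could be read again on arrays that share no hybridization with the si-control pair, since si-MLLT10, si-BRG1 and si-P300 cells of both lines were each hybridized to 1 array. In these pairs the HEK293T cells had received Wnt3A for 9 h and the depletion differs, so they are not replicates of the si-control pair. Among the 26614, 26489 and 26810 features shared with it, Pearson's r of the differences was 0.97, 0.93 and 0.92 for si-MLLT10, si-BRG1 and si-P300, across features that share probes and the reference RNA. Of the features past 2-fold higher in Ls174T on the si-control arrays, 99.1%, 98.8% and 98.1% were on the same side in the matched pairs, and 83.3%, 78.8% and 72.3% past 2-fold, where 14.2%, 15.1% and 14.3% of all features were. Of those higher in HEK293T, 98.8%, 95.7% and 93.9% were on the same side and 84.1%, 78.7% and 67.0% were past 2-fold, against 18.6%, 17.8% and 15.0% of all features. The si-P300 pair thus had the lowest share in both directions. For AGR2 the matched differences were 9.87, 10.44 and 9.01, for ASCL2 8.04, 8.78 and 8.57, for VIL1 9.68, 10.72 and 10.87, for BEX2 -9.00, -8.23 and -8.26, for CA2 -11.96, -8.51 and -8.20 and for TLE4 -6.85, -5.83 and -5.24, in the order si-MLLT10, si-BRG1 and si-P300. The epithelial junction median was 4.43, 4.13 and 3.99, the HOX median -3.38, -3.16 and -2.57, and the neural median -3.33, -1.91 and -1.63. Of 1882 genes past 2-fold higher in Ls174T with a ratio on all 10 arrays, 1792 had every Ls174T array above every HEK293T array, and of 2306 higher in HEK293T, 2135 had the reverse, a description that includes the si-control arrays on which the genes were called.

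**Figure D5:**
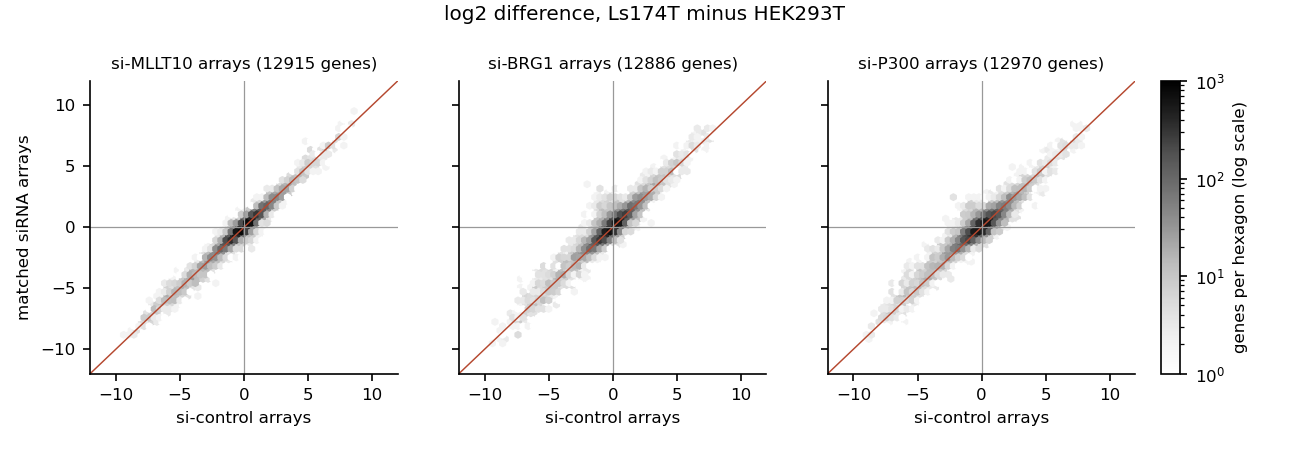
log2 difference, Ls174T minus HEK293T, of each gene on the si-control arrays (horizontal axis) and on the arrays of 1 matched siRNA (vertical axis), as counts of genes per hexagon with the line of equality in red. Genes lie along the line in all 3 pairs, with r over features of 0.97, 0.93 and 0.92.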

How the data were processed

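The authors deposited, for each array, Feature Extraction files with intensities per feature and channel (median signal, local background and processed signal, already background-subtracted and dye-normalized by the program) and a log10 ratio of Cy5 to Cy3 with its error. The file headers name version 10.5.1.1 of the program, the labels 8.5.1.1. The deposited table of values holds the same log10 ratios, with a largest difference of 0. Ratios were turned to Cy3 over Cy5 and converted to log2. Spots of a probe were averaged, with the mean of their errors. A gene is its brightest well-measured probe, named through RefSeq accessions (GRCh38.p14 gene table) for 27612 of 29084 features with an accession (94.9%). No coordinates of that table were used, since the array design is older, and promoter sequences are from RefSeq. Bounds used Cy3 signals after loess and Aquantile normalization (limma 3.58.1, R 4.3.3). Other values were computed with Python 3.11.15. The probes with at least 5 kept spots, 206 in number, had a median SD between spots of 0.04 (log2). The number of arrays limits the precision. Named genes are the siRNA targets, the 15 largest measured differences and the 12 largest bounds per direction, the markers, and the leading members of each list, and further list members were picked after their values were seen. The members, lists and rules were chosen with earlier results of these data known. The steps were tested on simulated data. Alternatives were other background corrections, the sample channel alone, other filters, centring, thresholds, probes and arrays. The β-catenin arrays, which hold no reference RNA, were not used here. XIST and Y-linked genes were left out, and a few list members and markers are not reported here.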

Additional observations from a re-analysis of the deposited data

How the results depend on the processing

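Differences of named genes moved by more than the program error for 114 of 154 after normexp and loess, 91 of 154 with outlying spot backgrounds replaced as well, 44 of 152, 74 of 149 and 68 of 152 on the si-MLLT10, si-BRG1 and si-P300 arrays, 45 of 151 and 36 of 152 against the HEK293T arrays of the same slide, 31 of 154 in the sample channel alone, 27 of 154 against the HEK293T Wnt3A array and 25 of 154 with all probes averaged. Median centring moved 0 of 154, and other filters and the deposited table cannot move a gene's value. Filters can remove it: 77 of the 154 kept a value with both channels above 2-fold background. With the sample well above background on both arrays, 106 did. These 2 filters moved 7 and 6 of the 18 list medians. Among genes past 2-fold, 3 changed sign under these alternatives, all after normexp and loess: MYO1A to -0.30, TM4SF5 to -1.05 and CD68 to -1.14. With outlying spot backgrounds replaced, an alternative chosen after seeing the data, 0 changed sign. Among list medians past 2-fold, that of the detoxifying enzymes changed sign, to -0.10 after normexp and loess. That setting moved the median of all features to -0.18, and the sample channel alone to -0.12. Counts of features past 2-fold changed by more than 1.5 times in these settings, and the cause was not tested where it does not follow from the setting. Higher in Ls174T, there were 2610 after normexp and loess, 5991 without the signal filter, 6620 at 1.5-fold and 1512 at 4-fold. Higher in HEK293T, there were 8487 without the signal filter, 8028 at 1.5-fold, 2337 at 4-fold, 2579 with both channels above 2-fold background (53.4% of calls then higher in Ls174T), and, chosen after seeing the data, 3357 with the sample well above background on both arrays and 3360 after normexp with outlying spot backgrounds replaced. No test was made across the 4 pairs of lines matched by siRNA, which differ in depletion and medium. The lower Cy3 signal of the Ls174T array limits how far genes that are low in Ls174T can be measured.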

Other observations

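The genes of chromosome X had the lowest median difference of the chromosomes compared (chromosomes from the RefSeq promoter table, GRCh38.p14, and without chromosome 8). Of 417 measured X-linked genes, 130 (31.2%) were past 2-fold higher in HEK293T cells and 44 (10.6%) in Ls174T, against 18.5% and 15.1% of all genes. The median difference of X-linked genes was -0.42 on the si-control arrays and -0.49, -0.47 and -0.41 on the si-MLLT10, si-BRG1 and si-P300 arrays. BEX2, BEX3, BEX4, AMOT, TCEAL9, TRO and TMSB15A are X-linked, all from the 15 largest measured differences and 12 largest bounds toward HEK293T. Past 4-fold higher in HEK293T were 15.1% of X-linked genes, 16.9% of chromosome 13 genes and 8.76% of all genes. The highest median on the si-control arrays was that of chromosome 11, with a median of 0.27 over 585 genes, 20.2% higher in Ls174T and 11.8% higher in HEK293T, and with matched medians of 0.25, 0.28 and 0.27. Chromosome 18 had a median of 0.25 over 163 genes, with 23.3% higher in Ls174T and 21.5% higher in HEK293T, and matched medians of 0.33, 0.22 and 0.37. Chromosome 13 had 24.9% of 201 genes higher in HEK293T, and its matched medians were -0.01, -0.10 and 0.08 beside -0.16. These chromosomes were picked after their values were seen.

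Beyond the lists, genes with no ratio that had the largest bounds in favor of Ls174T, picked after their values were seen, were SOHLH1 at least 1271-fold, CLRN3 at least 702-fold, the fucosyltransferase FUT3 at least 527-fold, REG1A at least 393-fold, the amino acid transporter subunit SLC3A1 at least 248-fold and PPP1R1B at least 213-fold. In favor of HEK293T they were EBF3 at least 55.6-fold, ERICH5 at least 47.4-fold, PROK2 at least 38.9-fold and the potassium channel KCNC1 at least 36.6-fold. Of 4025 such genes, 222 had a sample signal well above background in Ls174T only and 1002 in HEK293T only. The bound was past 2-fold for 222 in favor of Ls174T and 256 in favor of HEK293T, and past 16-fold for 68 and 23. The lowest signal well above background was higher on the Ls174T array, at 4.82 against 4.25, which makes bounds in favor of HEK293T smaller. The Cy3 signal of PPP1R1B was 12.10 against 4.37 on the normalized log2 scale.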
